A study of Homo sapiens with 36 samples.

Results

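Nuclear-encoded subunits of oxidative phosphorylation were examined in U2OS cells, a human osteosarcoma line, after siRNA against Hic-5 and the chromatin remodelers CHD9 and BRM. The genes were chosen by symbol alone, as every row of the gene count table that begins like a complex I to V subunit (NDUFA, NDUFB, NDUFC, NDUFS or NDUFV with a number, SDHA to SDHD, UQCR, COX4 to COX8, or ATP5). The rule took 77 of 15186 genes. Of these, 34 belong to complex I, 4 to complex II, 8 to complex III, 12 to complex IV and 15 to complex V. The 4 others match by symbol without being subunits. They are COX7A2L, a factor in supercomplex assembly, ATP5S and ATP5SL (RefSeq symbols DMAC2L and DMAC2), and ATP5EP2, a pseudogene of ATP5E. All 77 passed the filter on low values, and NDUFA4, once counted in complex I, was placed in complex IV. NDUFA3, NDUFA6, NDUFA4L2, COX4I2, COX6A2, COX7A1, COX7B2 and COX8C were not analysed here, and neither were the mitochondrially encoded subunits.

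All cells were U2OS stably transfected with GR alpha (the glucocorticoid receptor) and were grown in low-glucose DMEM with 5% FBS. Lipid-mediated siRNA transfection was followed after 48 h by 100 nM dexamethasone (dex) or ethanol vehicle (etoh), given for 8 h. There were 6 siRNA conditions, siNSsiNS (control siRNA), siHic5siNS, siCHD9siNS, siBRMsiNS, siCHD9siHic5 and siBRMsiHic5, each with 3 biological replicates per treatment made on different days, so 36 libraries in 12 groups. The design asks what depletion of CHD9 or BRM does in cells that are also depleted of Hic-5. The labels do not say whether the line is 1 clone, nor how the depleted proteins were affected.

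Library totals lay between 27442282 and 47148257 counts, and levels are given as CPM, the count relative to the library total scaled by upper-quartile factors. In vehicle libraries the transcript of TGFB1I1, which encodes Hic-5, was at 24.8%, 26.2% and 18.3% of its control level in siHic5siNS, siCHD9siHic5 and siBRMsiHic5. SMARCA2, which encodes BRM, was at 28.9% in siBRMsiNS and 24.9% in siBRMsiHic5. CHD9 was at 67.9% in siCHD9siNS, but at 139% in siCHD9siHic5, which goes against that label; its libraries are therefore called the libraries labelled siCHD9siHic5. In the siCHD9siNS dex libraries CHD9 was at 128% of its vehicle level there, and edgeR did not call it lower than in the siNSsiNS dex libraries, so results from the siCHD9siNS dex libraries are those of the label. In vehicle CHD9 also stood at 51.1% in siBRMsiHic5, where no siRNA against it is named. Among dex libraries edgeR called 2 of the 4 genes TGFB1I1, CHD9, SMARCA2 and NR3C1 (the receptor) lower in siHic5siNS than in siNSsiNS. Of 9 osteoblast-lineage markers 6 were in the table, with SPARC at a median of 1464 CPM, COL1A1 at 2146, RUNX2 at 32.2, ALPL at 18.2, TNFRSF11B at 15.1 and SPP1 at 8.28 CPM. Of 13 markers of other cell types 8 were in the table; apart from KRT18 (median 221 CPM), the medians ran from 0.436 CPM for CDH5 to 10.1 CPM for MYL2.

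Oxidative phosphorylation passes electrons from NADH through complex I, or from succinate through complex II, to ubiquinone, then through complex III and cytochrome c to complex IV, where oxygen is reduced. Complexes I, III and IV pump protons across the inner mitochondrial membrane, and complex V uses the gradient to make ATP. Most subunits are encoded in the nucleus, translated in the cytosol and imported, and the transcription factors NRF1, GABP and YY1, with coactivators of the PPARGC1A family, are the best known regulators of their genes. Osteosarcoma lines such as U2OS grow with both glycolysis and respiration.

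Because those factors act at promoters, the promoters of 3 genes described below are shown, picked among those that hold matches to the factors' motifs: COX6A1, whose level fell most but for COX7A2 with Hic-5 siRNA, and ATP5J and SDHB, which rose with siBRMsiHic5. Each is the 250 bases before the start that the RefSeq promoter table gives on build GRCh38.p14, 5′ to 3′ on the gene's strand. For ATP5J that start lies inside the full span of the gene, so its sequence is not upstream of the outermost start. Capitals mark matches, on either strand, to GCGCATGC (an NRF1-type core, which also matches as its reverse complement), ACCGGAAG (GABP-type) or AAGATGGCG (YY1-type).
COX6A1: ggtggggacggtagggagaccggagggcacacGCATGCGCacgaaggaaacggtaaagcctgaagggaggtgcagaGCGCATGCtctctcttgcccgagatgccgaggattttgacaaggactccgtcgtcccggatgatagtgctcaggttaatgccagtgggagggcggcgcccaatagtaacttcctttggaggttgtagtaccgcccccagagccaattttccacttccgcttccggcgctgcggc
ATP5J: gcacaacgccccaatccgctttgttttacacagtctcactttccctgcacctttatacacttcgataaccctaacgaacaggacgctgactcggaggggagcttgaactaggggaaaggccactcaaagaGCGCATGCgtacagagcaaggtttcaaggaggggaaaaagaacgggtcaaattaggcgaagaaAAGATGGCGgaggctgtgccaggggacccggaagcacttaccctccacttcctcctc
SDHB: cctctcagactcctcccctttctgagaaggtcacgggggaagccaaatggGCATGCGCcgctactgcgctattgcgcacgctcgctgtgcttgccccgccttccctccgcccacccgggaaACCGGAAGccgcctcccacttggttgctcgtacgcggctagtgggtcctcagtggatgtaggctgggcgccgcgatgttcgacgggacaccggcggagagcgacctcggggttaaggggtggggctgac
The COX6A1 sequence lies at chr12:120437863-120438112 on the plus strand, with the NRF1-type core at -218 and -174 from the start. The ATP5J sequence lies at chr21:25735055-25735304 on the minus strand, with the NRF1-type core at -120 and the YY1-type match at -57. The SDHB sequence lies at chr1:17054033-17054282 on the minus strand, with the NRF1-type core at -200 and the GABP-type match at -129. A promoter entry was matched for 63 of the 77 genes. In the 300 bases from 250 before to 50 after the start, GCGCATGC was found in 12 of them (19.0%), against 5.23% of the 11792 genes of the table that have an entry. ACCGGAAG was found in 5 (7.9%, against 3.92%) and AAGATGGCG in 7 (11.1%, against 3.55%). At least 1 of the 3 was found in 18 of the 63 (28.6%, against 11.9%). The entries of COX7A2, NDUFB3 and ATP5L held none of them. Only 1 start per gene was searched, and for COX7A2 it was the outer end of the full gene span, so matches at other starts are not known. These are matches of letters and not measured binding.

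The subunit transcripts were abundant and short. Their median transcript length was 0.673 kb, against 2.42 kb for all genes of the table, so levels are compared between genes only per kb of transcript. Over all 36 libraries the median level per kb was 208 CPM for complex IV, 148 for complex V, 124 for complex III, 71.0 for complex II and 64.8 for complex I. Within complex I, NDUFB9, a membrane-arm accessory subunit, was highest at 311 CPM per kb and NDUFV3, a small accessory subunit of the matrix arm, lowest at 12.3. In complex II the membrane anchor SDHD stood at 247 and the flavoprotein SDHA at 45.7 CPM per kb. In complex III UQCRH, the hinge protein, stood at 260 and UQCRFS1, the Rieske iron-sulfur protein, at 56.8. These ranks depend on the 1 GENCODE transcript chosen for each gene. UQCRFS1, taken at 3.48 kb, was the highest of complex III before division by length, at a mean of 198 CPM. In complex IV COX4I1, the common isoform of subunit 4, stood at 411, and COX6B2, the testis isoform of subunit 6b, at 2.63. In complex V ATP5G2, which encodes a c-ring protein, stood at 305 and ATP5E, the epsilon subunit of F1, at 2.26. The ATP5E value rests on 36 to 105 counts per library, and its pseudogene ATP5EP2 had 20 to 77; how reads shared between these copies were counted is not given in the sources used here, so both are uncertain.

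**Figure D1:**
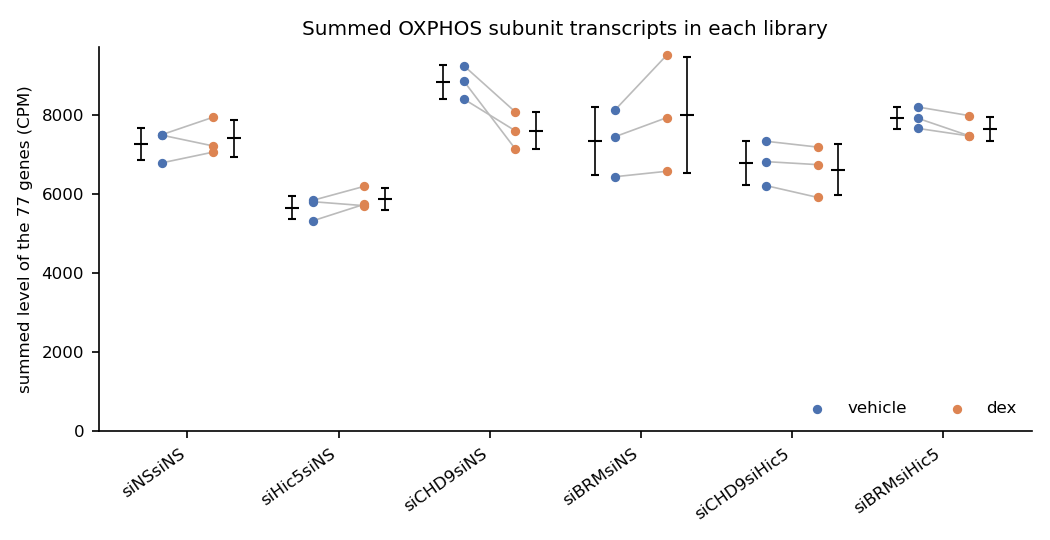
Summed level of the 77 genes in each library (CPM, y axis) for the 6 siRNA conditions (x axis), with vehicle libraries in blue and dex libraries in orange, grey lines joining libraries of one number, and black bars for the mean and SD of 3. The siHic5siNS vehicle libraries (5321 to 5839) lie below and the siCHD9siNS vehicle libraries (8395 to 9238) above the 3 control vehicle libraries (6786 to 7498).

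Hic-5 siRNA alone lowered many subunit transcripts, above all 2 small subunits of complex IV. Hic-5 is a focal adhesion protein that also acts in the nucleus as a coregulator of steroid receptors. In vehicle, the summed level of the 77 genes was 6786, 7482 and 7498 CPM in the control libraries and 5321, 5839 and 5803 CPM with siHic5siNS (means 7255 ± 407 and 5654 ± 289, SD, n = 3), so the groups did not overlap. Of the 77 genes 38 fell and 5 rose by edgeR's quasi-likelihood test (Benjamini-Hochberg adjusted p under 0.05 over 15179 genes), where 27.2% of all tested genes fell and 25.9% rose. The median log2 difference of the 77 was -0.26, against -0.01 for all genes. As these are bulk samples, fewer cells of a kind and less RNA per cell cannot be told apart. In dex libraries, compared in the same way, 33 fell and 4 rose (28.5% and 25.2% of all genes), and the 33 made up 86.8% of those that fell in vehicle and 100% of those that fell in dex.

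COX7A2 (chromosome 6, 75237675 to 75250298, GRCh38), the widely expressed isoform of subunit 7a of complex IV, was at 91.7, 99.9 and 97.4 CPM in the control vehicle libraries and at 15.4, 16.3 and 22.5 CPM with siHic5siNS. The groups were far apart, and the dex libraries gave 98.6, 97.5 and 110 CPM against 17.3, 15.0 and 20.0 CPM. The log2 difference in vehicle was -2.41 ± 0.14 (SE), with an adjusted p of 1.30e-12 in edgeR. COX6A1 (chromosome 12, 120438113 to 120440730), the widely expressed isoform of subunit 6a, was at 148, 168 and 147 CPM in control and at 27.1, 27.5 and 40.7 CPM with siHic5siNS. That is a log2 difference of -2.28 ± 0.18 (adjusted p = 1.72e-10 in edgeR), again with no overlap. In all, 9 of 12 complex IV genes fell and 0 rose. COX8A fell by 0.74 on the log2 scale, COX7B by 0.50, and COX5B, COX6B1 and COX6C by 0.47 each. COX5A fell by 0.37 and COX7C by 0.25. The 3 that did not pass were COX4I1 (log2 -0.16 ± 0.14), NDUFA4 (-0.13 ± 0.11) and the testis isoform COX6B2 (-0.21 ± 0.24).

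Complex I held both falls and rises: 15 of 34 genes fell and 2 rose. NDUFB3 (chromosome 2, 201072001 to 201085750), an accessory subunit of the membrane arm, was at 35.4, 36.8 and 42.6 CPM in control and at 13.7, 9.70 and 17.3 CPM with siHic5siNS. The highest of these siHic5siNS libraries was below the lowest control, and the log2 difference was -1.49 ± 0.17 (adjusted p = 7.34e-08, edgeR). NDUFB7, on the intermembrane-space side, went from 38.5 ± 3.20 to 16.9 ± 2.38 CPM, and NDUFS1, the large iron-sulfur subunit of the NADH-oxidising module, from 111 ± 5.05 to 72.6 ± 6.22 CPM (SD, n = 3). NDUFA9 fell from 156 ± 8.08 to 85.7 ± 5.65 CPM. NDUFV1, which carries the flavin that takes electrons from NADH, did not pass (log2 -0.06 ± 0.19). Of those that rose, NDUFB5, of the membrane arm, was at 28.6, 29.8 and 39.8 CPM in control and at 52.9, 59.2 and 54.5 CPM with siHic5siNS, without overlap (log2 0.76 ± 0.15, adjusted p = 0.000113 in edgeR).

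In complex II the membrane anchors parted: SDHC rose from 70.3 ± 9.59 to 101 ± 5.98 CPM, and SDHD fell from 118 ± 9.48 to 99.6 ± 4.95 CPM. SDHA (log2 -0.17 ± 0.13) and the iron-sulfur subunit SDHB (0.13 ± 0.12) did not pass. In complex III 4 of 8 fell and 0 rose. UQCRQ, a small subunit next to cytochrome b, went from 129 ± 7.04 to 84.7 ± 2.74 CPM, UQCRFS1 from 189 ± 13.3 to 150 ± 8.71 CPM and the core protein UQCRC2 from 126 ± 9.17 to 106 ± 5.71 CPM. UQCRC1 did not pass (log2 -0.26 ± 0.12). In complex V 8 of 15 fell and 1 rose. ATP5I, the e subunit at the dimer interface, went from 20.0 ± 2.44 to 7.63 ± 2.08 CPM. Of the F1 subunits ATP5B (beta) fell from 610 ± 57.0 to 361 ± 33.1 CPM and ATP5A1 (alpha) from 404 ± 14.7 to 257 ± 10.8 CPM. ATP5C1 (gamma) did not pass (log2 -0.20 ± 0.10). The 3 c-ring genes ATP5G1, ATP5G2 and ATP5G3 fell by 1.14, 0.64 and 0.68 on the log2 scale. ATP5L, the g subunit beside ATP5I, rose (log2 0.25 ± 0.11, adjusted p = 0.0491 in edgeR). Outside the complexes COX7A2L fell from 146 ± 5.83 to 92.6 ± 6.50 CPM and ATP5S rose from 13.1 ± 1.99 to 18.6 ± 2.84 CPM.

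**Figure D2:**
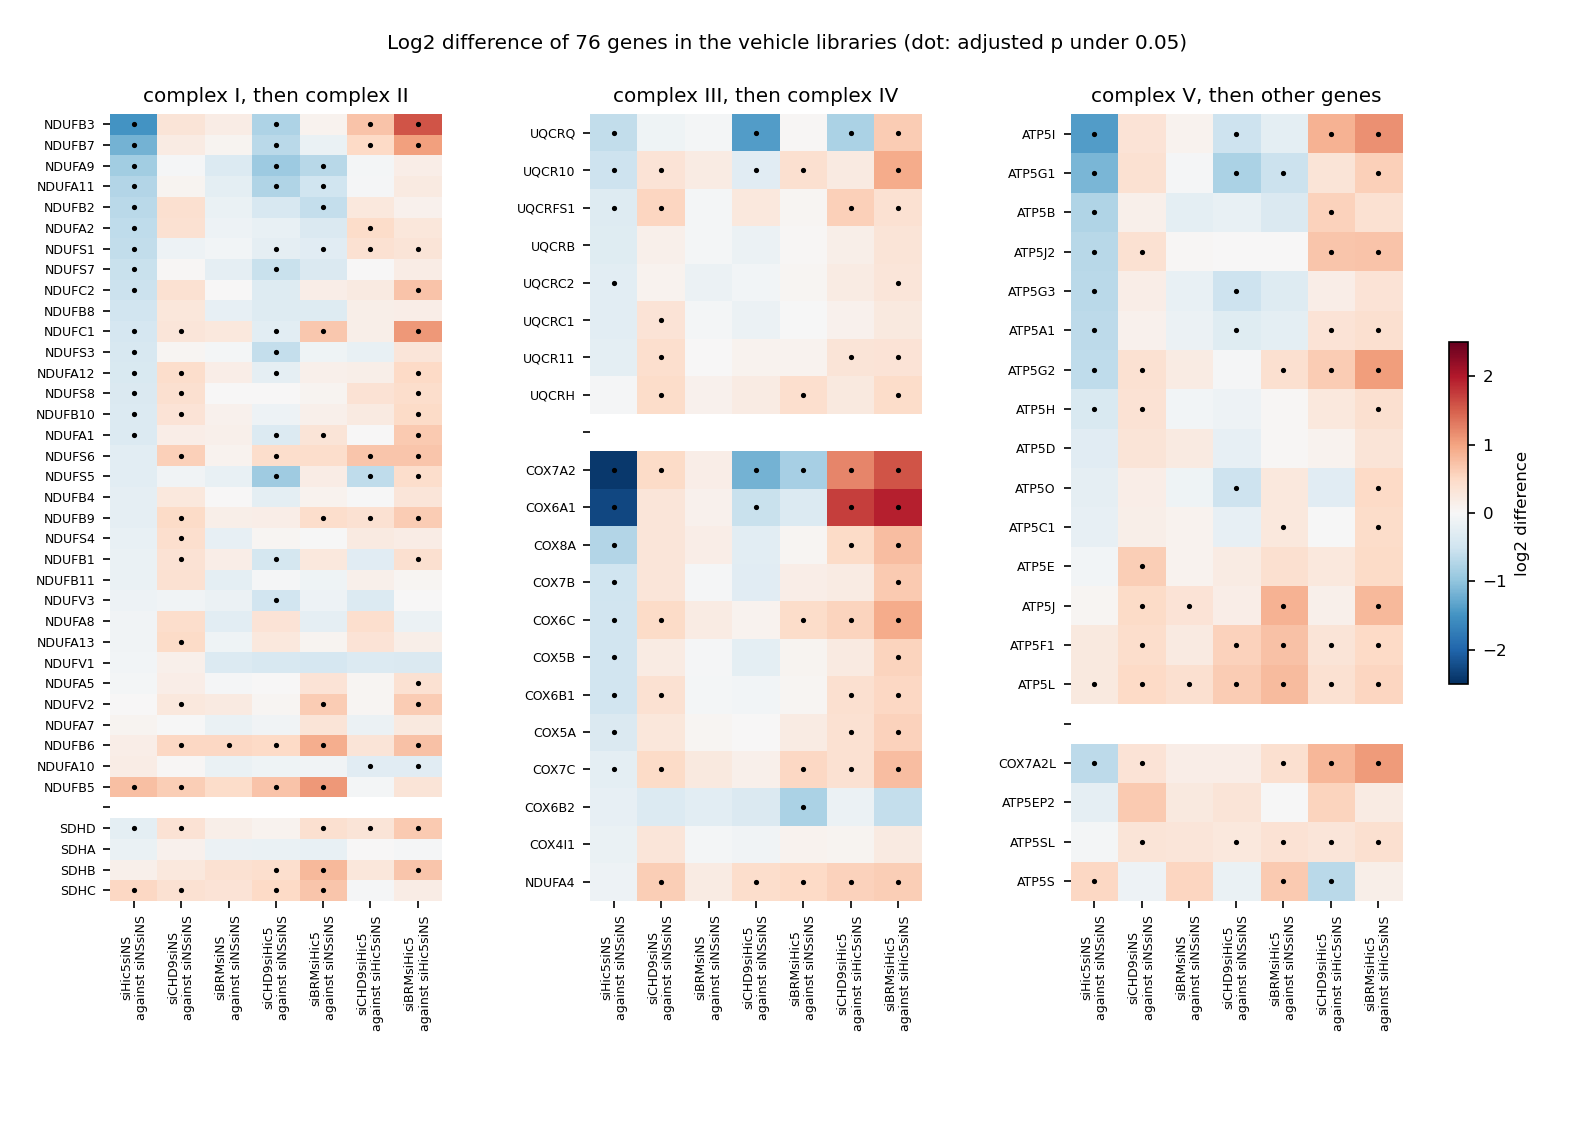
Log2 difference (colour, from blue for lower to red for higher) of 76 of the 77 genes (rows, by complex, ordered by the siHic5siNS difference) in the 7 comparisons among vehicle libraries (columns); a dot marks an edgeR adjusted p under 0.05. COX7A2 (-2.41) and COX6A1 (-2.28) are the darkest blue cells of the siHic5siNS column, and NDUFB5 and SDHC are red in the same column.

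CHD9 siRNA alone went the other way. In vehicle the summed level was 8845, 9238 and 8395 CPM with siCHD9siNS, each above the highest control library (7498 CPM). Of the 77 genes 33 rose and 0 fell in edgeR, where 15.7% of all tested genes rose and 16.5% fell, and the median log2 difference was 0.34 against 0.02 for all genes. By complex, 12 of 34 rose in complex I, 2 of 4 in II, 5 of 8 in III, 5 of 12 in IV and 7 of 15 in V. NDUFA4, a subunit of complex IV, was at 176, 185 and 184 CPM in control and at 288, 277 and 267 CPM with siCHD9siNS, with no overlap (log2 0.61 ± 0.11, adjusted p = 0.000103 in edgeR). ATP5L rose from 67.3 ± 5.85 to 95.1 ± 1.75 CPM, and ATP5J, the F6 subunit of the peripheral stalk, from 58.0 ± 4.92 to 80.7 ± 5.81 CPM. UQCRFS1 rose from 189 ± 13.3 to 274 ± 23.9 CPM, COX7C from 116 ± 6.35 to 162 ± 7.74 CPM, COX6C from 105 ± 9.03 to 146 ± 5.13 CPM and NDUFA12, of the complex I matrix arm, from 40.1 ± 1.73 to 54.2 ± 3.45 CPM. Most core subunits did not pass: NDUFS1 (log2 -0.13 ± 0.09), NDUFV1 (0.12 ± 0.19), SDHA (0.10 ± 0.13), UQCRC2 (0.08 ± 0.11), ATP5A1 (0.11 ± 0.12) and ATP5B (0.12 ± 0.18).

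The count with siCHD9siNS moved when offsets for transcript length and GC content were added together, and with single libraries. Across all tested genes the log2 difference had a Spearman rho of -0.295 with transcript length (a description across genes, which are not independent). With offsets for length and GC content in the fit, 11 of the 76 members in that fit rose and 0 fell. Of 14830 genes in all, 2516 rose and 1996 fell. The share of members that rose was therefore below that of all genes, so no excess of rises was left under the offsets, though 0 fell. NDUFA4, UQCRFS1, ATP5F1, ATP5L, ATP5J, COX6C, COX7C and NDUFA12 were among the 11. Without siNSsiNS replicate 1 the count was 14, without siCHD9siNS replicate 1 it was 18, and without siCHD9siNS replicate 2 it was 19. In dex libraries, 2 of the 77 (COX6C and NDUFA4) were higher than control and 1, UQCRQ, was lower (7.96% and 10.7% of all genes). The part of length alone, or of GC alone, was not tested.

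BRM siRNA alone left most of the 77 uncalled. The summed level was 8126, 7450 and 6433 CPM, on either side of the control libraries. In edgeR 4 rose and 0 fell (4.25% and 2.19% of all genes), and the 4 are 5.19% of the 77, near the share of all genes. ATP5J was at 67.9, 74.9 and 77.8 CPM, against 52.5, 59.3 and 62.1 CPM in control, without overlap (log2 0.34 ± 0.09, adjusted p = 0.0281 in edgeR). NDUFB6, of the membrane arm, gave 63.9 ± 13.4 against 44.7 ± 8.01 CPM with overlapping libraries, and ATP5L rose by a log2 of 0.40 ± 0.11. The number called was 0 without siNSsiNS replicate 1, without siNSsiNS replicate 2 or without siBRMsiNS replicate 3, 9 without siNSsiNS replicate 3 and 8 without siBRMsiNS replicate 1. How many of all genes those fits called is not given here. With the length and GC offsets 1 was called, as higher (3.37% of all genes up and 2.74% down). In dex libraries 9 were higher and 0 lower (7.08% and 4.77% of all genes).

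**Figure D3:**
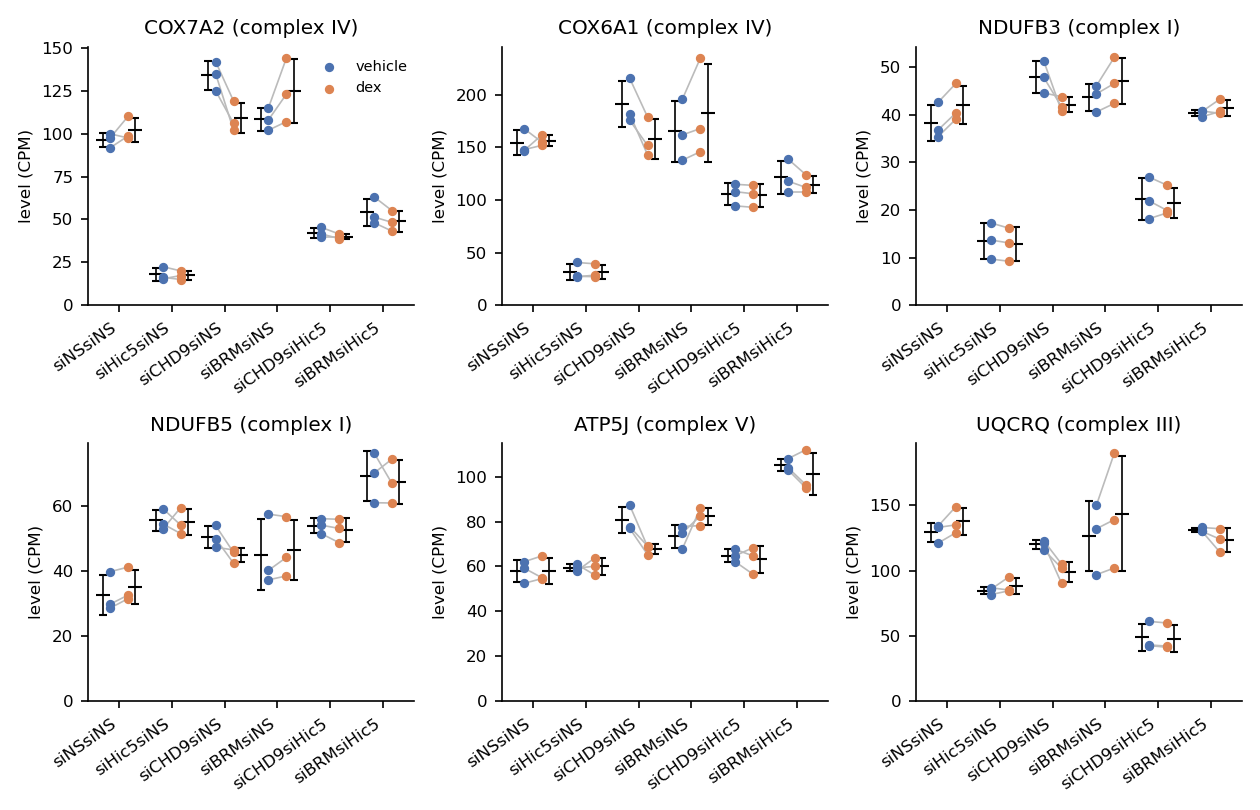
Level (CPM, y axis) of 6 subunit genes in each library, by siRNA condition (x axis), vehicle in blue and dex in orange, with lines joining libraries of one number and black bars for the mean and SD of 3. COX7A2 and COX6A1 are lowest in siHic5siNS, UQCRQ is lowest in the libraries labelled siCHD9siHic5 (48.9 CPM in vehicle), and NDUFB5 and ATP5J are highest in siBRMsiHic5 (69.1 and 105 CPM in vehicle).

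Adding siRNA against BRM to that against Hic-5 was compared with Hic-5 siRNA alone. Among vehicle libraries 47 of the 77 were higher in siBRMsiHic5 than in siHic5siNS and 1 was lower in edgeR (25.2% and 24.2% of all genes), with a median log2 difference of 0.44 against 0.02 for all genes. Complex IV had 10 of 12 higher, complex V 11 of 15, complex III 6 of 8, complex II 2 of 4 and complex I 16 of 34, with 1 lower, NDUFA10. COX6A1 was at 27.1, 27.5 and 40.7 CPM in siHic5siNS and at 108, 118 and 139 CPM in siBRMsiHic5, with no overlap (log2 1.94 ± 0.17, adjusted p = 1.62e-09 in edgeR). COX7A2 went from 18.1 ± 3.88 to 54.2 ± 7.97 CPM (log2 1.58 ± 0.13), which left it below the control level of 96.4 ± 4.19 CPM. NDUFB3 went from 13.6 ± 3.81 to 40.4 ± 0.645 CPM, beside 38.3 ± 3.81 CPM in control. NDUFC1 rose from 20.5 ± 0.392 to 43.7 ± 4.57 CPM, COX7A2L from 92.6 ± 6.50 to 195 ± 18.6 CPM and ATP5G2 from 111 ± 8.12 to 229 ± 32.7 CPM. With length and GC offsets 29 were higher and 2 lower (23.7% and 23.0% of all genes).

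Against the control siRNA, siBRMsiHic5 gave 23 higher and 7 lower in edgeR (24.3% and 24.6% of all genes), with a median of 0.08 against -0.01; with library totals as the only scaling the split was 21 higher and 12 lower. The median did not stay positive. In dex libraries it was -0.01, against -0.02 for all genes, with 21 higher and 10 lower (22.4% and 23.1% of all genes). With the length and GC offsets it was -0.10, against 0.00 for all genes. Under them 13 were higher and 18 lower (24.8% and 23.7% of all genes). Those counts are 17.1% and 23.7% of the 76 members in that fit, so the share that fell was that of all genes. ATP5J stood at 108, 103 and 104 CPM against 52.5, 59.3 and 62.1 CPM in control, with no overlap (log2 0.86 ± 0.09, adjusted p = 8.52e-08 in edgeR). In complex II SDHB rose from 54.2 ± 5.51 to 95.6 ± 4.27 CPM, SDHC from 70.3 ± 9.59 to 114 ± 6.95 CPM and SDHD by a log2 of 0.41 ± 0.09, while SDHA did not pass (log2 -0.19 ± 0.13). ATP5F1, the b subunit of the stalk, rose from 192 ± 27.8 to 320 ± 9.11 CPM, ATP5L from 67.3 ± 5.85 to 116 ± 8.14 CPM and NDUFB5 from 32.7 ± 6.17 to 69.1 ± 7.70 CPM. The 7 lower genes were COX7A2, COX6B2, NDUFA9, NDUFS1, NDUFB2, NDUFA11 and ATP5G1. Of these COX6B2 had a mean of at most 1.62 CPM in any group, and its siBRMsiHic5 libraries (0.764 to 1.15 CPM) overlapped the control libraries (1.10 to 2.17 CPM).

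The libraries labelled siCHD9siHic5 had 26 genes higher and 4 lower than siHic5siNS (22.0% and 25.7% of all genes, edgeR), with a median of 0.23 against -0.04. COX6A1 was at 94.5, 115 and 108 CPM against 27.1, 27.5 and 40.7 CPM in siHic5siNS (log2 1.73 ± 0.17, adjusted p = 5.31e-09), with no overlap. COX7A2 was at 42.3 ± 2.89 CPM (log2 1.22 ± 0.13). Complex IV had 8 of 12 higher, complex V 7 of 15, complex III 2 of 8 with 1 lower, complex II 1 of 4 and complex I 6 of 34 with 2 lower. ATP5I went from 7.63 ± 2.08 to 14.0 ± 1.09 CPM and ATP5J2, the f subunit of Fo, from 36.1 ± 2.70 to 58.9 ± 4.43 CPM. The 4 lower genes were UQCRQ, NDUFS5, NDUFA10 and ATP5S. UQCRQ was at 43.1, 42.6 and 61.1 CPM, below siHic5siNS at 81.6, 85.6 and 86.9 CPM and control at 121, 133 and 134 CPM, and these 3 groups did not overlap (log2 -0.79 ± 0.17 and -1.40 ± 0.17). The number called was 19 without siCHD9siHic5 replicate 2, instead of 30, and the share of all genes in that fit is not given here.

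Against the control siRNA the libraries labelled siCHD9siHic5 gave 10 higher and 22 lower (23.7% and 28.9% of all genes, edgeR), with a median of -0.15 against -0.05. Those counts are 13.0% and 28.6% of the 77, so the share that fell was near that of all genes. Complex I accounted for 13 of the 22, among them NDUFS5, which went from 127 ± 6.08 to 68.4 ± 9.41 CPM, NDUFB3 (38.3 ± 3.81 to 22.3 ± 4.32 CPM), NDUFA9 (156 ± 8.08 to 83.1 ± 9.31 CPM) and NDUFS3 (70.3 ± 4.56 to 46.6 ± 6.04 CPM), a core subunit of the matrix arm. The 10 that rose included ATP5L (67.3 ± 5.85 to 104 ± 12.6 CPM), ATP5F1 (192 ± 27.8 to 284 ± 26.9 CPM), NDUFA4 (181 ± 4.64 to 246 ± 9.35 CPM), NDUFB5, SDHB and SDHC. The comparisons with control share the siNSsiNS libraries, and those with Hic-5 siRNA share the siHic5siNS libraries, so their values are set side by side and no overlap between them is given.

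**Figure D4:**
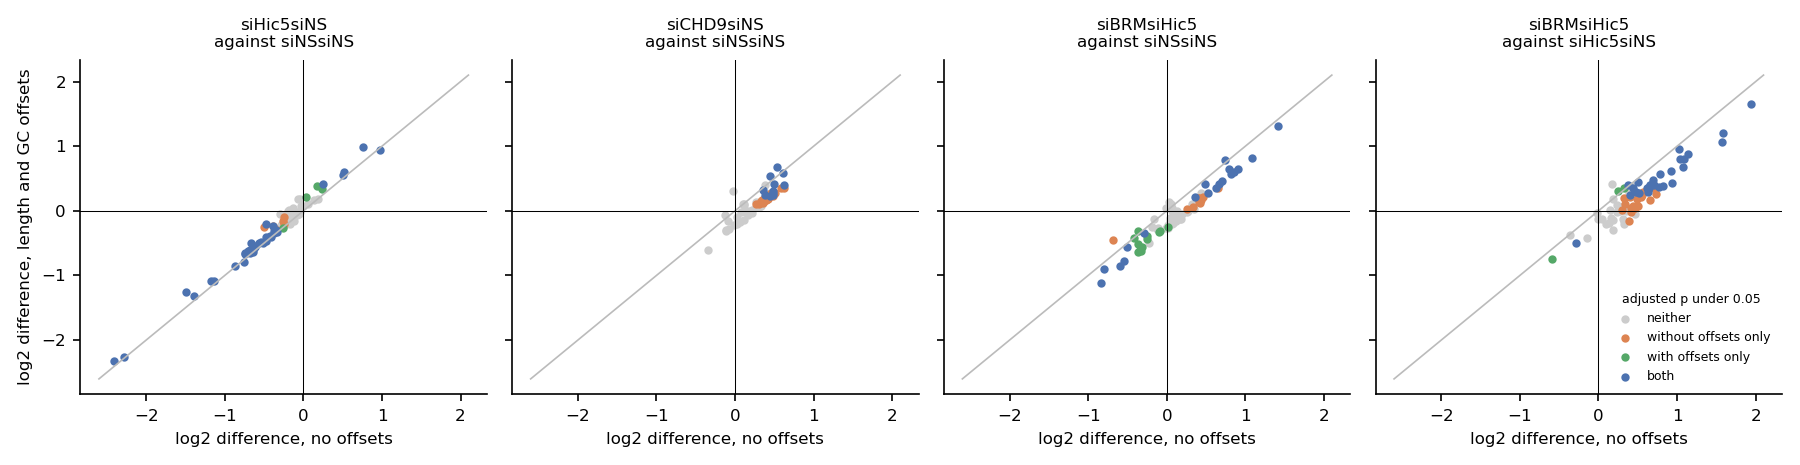
Log2 difference of 76 of the genes, those with a transcript length, without (x axis) and with (y axis) offsets for transcript length and GC content in edgeR, in 4 comparisons among vehicle libraries; the grey line marks equality, and colours show in which fit the adjusted p was under 0.05. Points lie near the line for siHic5siNS (38 lower without and 33 with offsets) and mostly below it for siCHD9siNS (33 higher without and 11 with) and siBRMsiHic5.

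Genes that work with the subunits were counted from lists of known pathway members, again in edgeR. The shares of all genes to read these counts against were 27.2% down and 25.9% up with siHic5siNS, 15.7% up and 16.5% down with siCHD9siNS, and 24.3% up and 24.6% down for siBRMsiHic5 against control. Of a list of 6 genes (the electron carriers CYCS, CYC1, ETFA, ETFB and ETFDH, and NDUFAB1, which is not one), siHic5siNS lowered 3 and raised 1. Cytochrome c (CYCS) was at 161 CPM in control, 62.5 CPM with siHic5siNS (log2 -1.36), 149 CPM in the libraries labelled siCHD9siHic5 and 180 CPM with siBRMsiHic5. CYC1, cytochrome c1 of complex III, was at 199, 127, 93.4 and 177 CPM in the same order, and NDUFAB1, the acyl carrier protein of complex I, fell by 0.78 on the log2 scale with siHic5siNS. Of 47 assembly factors siHic5siNS lowered 11 and raised 6, shares at or under those of all genes, siCHD9siNS raised 17 and lowered 0 (median log2 0.26), and siBRMsiHic5 against control raised 23 and lowered 2 (median 0.34). With siCHD9siNS the complex I assembly factor NDUFAF2 rose from 21.6 to 43.5 CPM and NDUFAF4 from 21.8 to 37.4 CPM. With siHic5siNS the complex II factor SDHAF2 fell from 31.4 to 16.2 CPM and the complex V factor ATPAF1 from 31.5 to 17.9 CPM.

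Of 16 regulators of mitochondrial biogenesis 5 fell and 3 rose with siHic5siNS, where 27.2% of all genes fell and 25.9% rose, so the list as a whole was near the background. TFAM, the packaging and transcription factor of mitochondrial DNA, fell from 202 to 106 CPM, the factors NRF1 from 19.6 to 13.1 CPM and GABPA from 49.9 to 30.6 CPM, and the coactivator PPARGC1B from 18.1 to 7.95 CPM. The coactivator PPARGC1A went the other way, from 4.22 to 16.0 CPM, and was at 2.19 CPM in the libraries labelled siCHD9siHic5 and 3.43 CPM with siBRMsiHic5. With siCHD9siNS 1 regulator rose and 1 fell, C10orf2, the mitochondrial helicase, and PPARGC1B.

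Of 23 genes of the TCA cycle and pyruvate dehydrogenase siHic5siNS lowered 8 and raised 4, against 27.2% and 25.9% of all genes, with SUCLA2, a succinyl-CoA ligase subunit, at 23.1 and 8.12 CPM. Of 22 glycolysis and hypoxia genes it lowered 9 and raised 3, against the same shares, with LDHA, lactate dehydrogenase A, at 1840 and 687 CPM. Ribosomal protein genes were counted in the same comparisons, where 15.7% of all genes rose and 16.5% fell with siCHD9siNS, and 25.2% were higher and 24.2% lower for siBRMsiHic5 against siHic5siNS. With siHic5siNS 36 of 74 mitochondrial ribosomal protein genes fell and 5 rose (median log2 -0.31), and 27 of 80 cytosolic ones fell and 4 rose (median -0.33). With siCHD9siNS 42 of the 74 rose and 3 fell (median 0.37), and 31 of the 80 rose and 3 fell (median 0.35); with length and GC offsets 22 and 8 rose and 4 and 4 fell. For siBRMsiHic5 against siHic5siNS 56 of the 74 were higher and 1 lower (median 0.51), and 18 of the 80 were higher and 0 lower (median 0.27). With the offsets 37 and 5 were higher and 2 and 5 lower, where 23.7% of all genes were higher and 23.0% lower. Their part in the result on the subunits was not tested.

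Dex was examined within each siRNA condition. Without regard to pairs of libraries, edgeR called 0 of the 77 in all 6 conditions. Of all genes it called 0.343% up and 0% down with siNSsiNS, 0.725% and 0.152% with siHic5siNS, 0.942% and 0.0198% with siCHD9siNS, 0.382% and 0% with siBRMsiNS, 0.428% and 0.0264% in the libraries labelled siCHD9siHic5, and 0.494% and 0.00659% with siBRMsiHic5. At an unadjusted p under 0.05 there were 21 of the 77, all lower, with siCHD9siNS, 1 higher with siBRMsiNS and 0 in the 4 other conditions. Of all 15179 genes, in either direction, there were 1495 with siCHD9siNS, 533 with siBRMsiNS and 379 to 890 in the 4 others. DESeq2 called 1 with siCHD9siNS, where it called 262 of all genes up and 21 down, and 0 in the others.

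Vehicle and dex libraries of one condition and number varied together, and with a term for each of these pairs (the replicate block) 62 of the 77 fell and 0 rose with dex in siCHD9siNS, where 12.9% of all genes fell and 11.2% rose in edgeR. By complex 26 of 34 fell in I, 2 of 4 in II, 6 of 8 in III, 11 of 12 in IV and 14 of 15 in V. The summed level in siCHD9siNS went from 8845 to 7132 CPM in replicate 1, from 9238 to 8071 CPM in replicate 2 and from 8395 to 7591 CPM in replicate 3. These 3 vehicle libraries are also those that stood above control, so this fall and that rise are not independent results. Group means were 8826 (vehicle) and 7598 CPM (dex) with siCHD9siNS, and 7255 and 7401 CPM with siNSsiNS. The changes of single genes were small: the median log2 change of the 77 within a pair was -0.34, -0.19 and -0.15, with 75, 73 and 74 of the 77 lower. Of all genes 53.9%, 51.2% and 56.0% were lower in these pairs. Single pairs of other conditions were as one-sided: 73 of the 77 were lower in replicate 1 of the libraries labelled siCHD9siHic5, and 73 were higher in replicate 1 of siBRMsiNS. In siCHD9siNS 46 of the 77 had all 3 dex libraries below all 3 vehicle libraries, against 11.1% of all genes. ATP5G2 went from 227 ± 16.7 to 186 ± 22.9 CPM (log2 -0.29 ± 0.05, adjusted p = 0.000499 with the block in edgeR and 0.516 without). COX8A, a small hydrophobic subunit, went from 129 ± 12.7 to 100 ± 10.1 CPM, NDUFA11, of the complex I membrane arm, from 15.0 ± 1.23 to 10.8 ± 0.732 CPM and UQCRFS1 from 274 ± 23.9 to 223 ± 10.8 CPM. NDUFS1 (log2 0.06 ± 0.04) and SDHA (-0.02 ± 0.06) did not pass.

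This fall rested in part on 1 pair, and the count moved when offsets for length and GC content were added together. Without the pair of siCHD9siNS replicate 1 the block called 11 of the 77, and the share of all genes in that fit is not given here. With the length and GC offsets added to the block it called 27 down and 0 up (7.44% and 6.63% of all genes). Across all genes the dex log2 change in siCHD9siNS, fitted without the block, had a Spearman rho of 0.400 with transcript length, shorter genes being lower. In a fit with the block 74 of 80 cytosolic and 33 of 74 mitochondrial ribosomal protein genes fell and 0 rose. Of all genes 12.9% fell with the block alone and 7.44% with the offsets added to it. With siBRMsiNS the block called 2 of the 77 higher and 0 lower (2.37% and 1.52% of all genes), COX6B1 (115 ± 21.4 to 136 ± 34.8 CPM, log2 0.24 ± 0.06) and COX5B (109 ± 19.1 to 131 ± 33.0 CPM, log2 0.25 ± 0.06); with the offsets added it called 0. In the other 4 conditions the block called 0, against 1.87% of all genes up and 0.626% down with siNSsiNS, 4.37% and 4.55% with siHic5siNS, 3.23% and 1.51% in the libraries labelled siCHD9siHic5, and 4.20% and 1.76% with siBRMsiHic5. With the offsets added 1 gene, ATP5O, the stalk subunit OSCP, was lower with siBRMsiHic5.

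**Figure D5:**
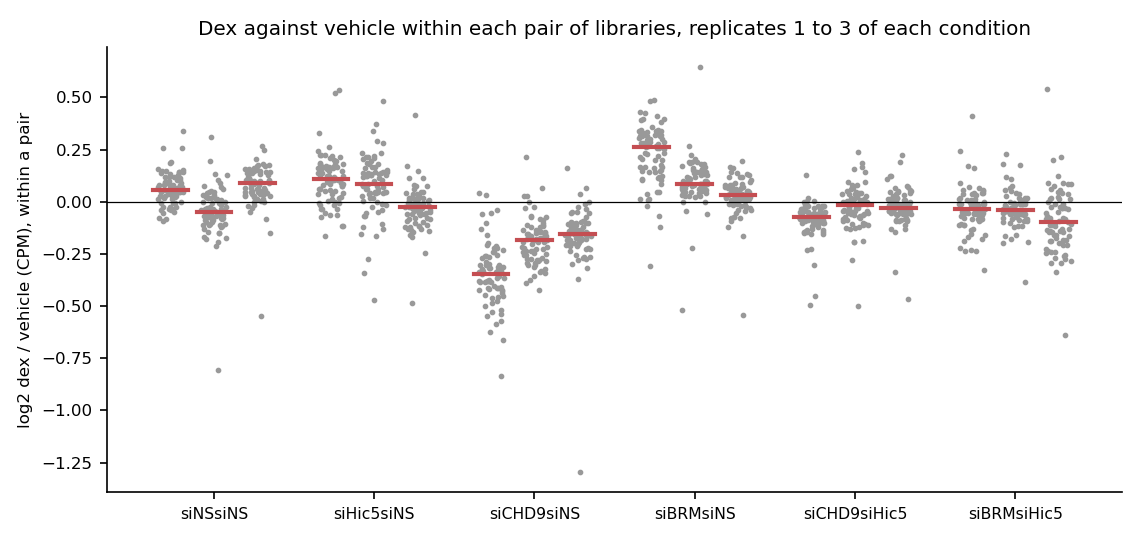
Log2 of the dex over the vehicle level (y axis) of each of the 77 genes (grey points) within each pair of libraries, for replicates 1, 2 and 3 from left to right in each siRNA condition (x axis); red lines mark the median of the 77. The medians of the 3 siCHD9siNS pairs (-0.34, -0.19 and -0.15) lie below 0 and those of the 3 siBRMsiNS pairs (0.26, 0.09 and 0.03) above it.

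The dex response in siCHD9siNS was compared with that in siNSsiNS through the interaction term. This term also uses the siCHD9siNS vehicle libraries that stood above control. Without the block edgeR called 0 of the 77 (0% of all genes up and 0.00659% down), with 8 at an unadjusted p under 0.05, and DESeq2 called 0. Of all 15179 genes 464 were under that p in either direction, and DESeq2 called 23 up and 0 down. With the block 19 had a lower dex response in siCHD9siNS and 0 a higher one (1.84% and 2.21% of all genes), 7 of them in complex IV, 5 in V, 4 in I and 3 in III. ATP5G2 had a difference of -0.34 ± 0.07 on the log2 scale (adjusted p = 0.0164 in edgeR with the block), ATP5J2 of -0.40 ± 0.09 and COX7C of -0.39 ± 0.08. The count was 0 without replicate 1 of siCHD9siNS, without replicate 1 of siNSsiNS or without replicate 3 of siNSsiNS, 1 without replicate 2 of siCHD9siNS and 0 with the length and GC offsets added. The 4 other interaction terms gave 0 of the 77 with or without the block, and 0 at an unadjusted p under 0.05 without it. Of all genes 25 to 125 were under that p in either direction. DESeq2 also called 0 of the 77, and the block called at most 0.132% of all genes up and 0.0527% down.

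Most of the 77 rose and fell together over the 36 libraries. The correlation of a gene with the mean of the other members (each on a standardised log2 scale, a description with shared libraries and depth) had a median of 0.720, and 59 genes were above 0.5. COX7B (0.957), COX5B (0.942) and COX6B1 (0.936) were highest, all of complex IV. The 6 genes below 0 included COX6B2 (-0.208), ATP5S (-0.185), SDHC (-0.135), NDUFB5 (-0.105) and NDUFA10 (-0.0991). Over the 12 group means the genes outside the set closest to its mean profile included MRPL21 (r = 0.975), a mitochondrial ribosomal protein, TCEB2 (0.967), TOMM7 (0.966), of the mitochondrial import channel, and RPL9 (0.966), a cytosolic ribosomal protein.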

How the data were processed

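The submitters' processing notes name TopHat2 2.1.1, edgeR and GRCh38 for the authors' own processing. Which tool counted reads, and with which annotation, is not stated in those notes. As deposited, the file is named as CPM after upper-quartile normalisation. The deposited values, however, are whole numbers with unequal totals and with upper quartiles from 1732 to 2973 counts, so they were taken as raw counts, which no source states. Members and lists were chosen with earlier results of these data known. Counts were fitted with edgeR 4.0.16 (quasi-likelihood, R 4.3.3) over 36 libraries with 12 group means and upper-quartile factors. The filter on low values asked for over 1 scaled CPM in 3 or more libraries (15179 genes passed and 7 did not), with Benjamini-Hochberg adjustment over them and calls under 0.05. There were 18 comparisons: 6 of dex, 5 of siRNA against control, 2 of added siRNA and 5 interactions. Correlations of residuals for the 18 vehicle and dex pairs, which share a condition and number in the labels, were 0.404 to 0.905, so pairs were fitted as a block (12 residual degrees of freedom instead of 24). Alternatives were TMM factors, library totals alone, no filter, DESeq2 1.42.0, limma 3.58.1 on log2(CPM + 0.5), offsets for transcript length and GC (GENCODE 29; 14830 tested genes, 76 of the 77), dex libraries, and each library left out. On simulated data for dex in siCHD9siNS (15179 genes), 1.5-fold changes were recovered in 30% without and 92% with the block. Each fit had its own simulated data, made from that fit's means and spread. The 30% and 92% therefore do not show what the block gains on the same data. Named genes were, per comparison, up to 6 called members each way with the smallest p (4 each way with the block), core subunits, isoforms, the extremes of each complex and up to 3 called genes per list; others named were chosen after their values were seen. Some genes are not reported here.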

Additional observations from a re-analysis of the deposited data

Results flagged for a closer look

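With the pairs of libraries as a block, the dex response differed between siCHD9siNS and siNSsiNS by the interaction term of edgeR's quasi-likelihood test: 19 of the 77 genes had a lower response in siCHD9siNS at an adjusted p under 0.05, against 1.84% of all genes tested. The 4 with the smallest p were ATP5G2 (difference of log2 changes -0.34 ± 0.07), ATP5J2 (-0.40 ± 0.09), COX7C (-0.39 ± 0.08) and ATP5G1 (-0.36 ± 0.08), of which ATP5G2 and ATP5G1 encode c-ring proteins of complex V. With the length and GC offsets added, these genes had adjusted p values of 0.143, 0.0947, 0.110 and 0.208. Without the block edgeR called 0 of the 77. With the block the count was also 0 without replicate 1 of siCHD9siNS, without replicate 1 of siNSsiNS or without replicate 3 of siNSsiNS, 1 without replicate 2 of siCHD9siNS, and 0 with the offsets. The interaction and the rise of siCHD9siNS over control share both sets of vehicle libraries, so they are not independent results.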

How the results depend on the processing

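Of 72 changes of named members, 44 stayed on the same side of the threshold under all alternatives run; of 1032 values, 968 did so, 50 lost and 14 gained significance, and 0 reversed. The median of the 77 in siBRMsiHic5 against control went from 0.08 to -0.01 in dex libraries. There the median of all genes was -0.02, and 21 members were higher and 10 lower. With length and GC offsets the median of the 77 was -0.10. With those offsets the number of members called became 11 for siCHD9siNS, 1 for siBRMsiNS and 31 for siBRMsiHic5 against siHic5siNS, 27 for dex in siCHD9siNS with the replicate block, 1 for dex in siBRMsiHic5 with the block, and 0 for the difference of dex responses. The offsets moved the median of all genes in the libraries labelled siCHD9siHic5 by 0.13 against control and 0.11 against siHic5siNS. In dex libraries 3 were called for siCHD9siNS and 9 for siBRMsiNS. With the replicate block the calls rose to 62 and 2 for dex in siCHD9siNS and siBRMsiNS, to 19 for the difference of dex responses in siCHD9siNS, and to 9 for siBRMsiNS against control; it moved no other count by over 1.5 times. The block count of 19 became 11 with TMM factors and 12 with library totals alone. DESeq2 called 1 for dex in siCHD9siNS. For siRNA comparisons the numbers pair libraries only as a hint: correlations ran from -0.223 to 0.664, with every pair above 0.1 in 3 of 7 comparisons.

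Leaving out each library in turn gave 31 to 42 calls for siHic5siNS, 14 to 30 for siCHD9siNS, 0 to 9 for siBRMsiNS, 22 to 31 for the libraries labelled siCHD9siHic5 and 23 to 30 for siBRMsiHic5 against control. Against siHic5siNS the ranges were 19 to 32 and 40 to 46. Leaving out each pair from the block gave 11 to 58 for dex in siCHD9siNS and 0 to 22 for the difference of dex responses. All of these are counts of members, and the shares of all genes in the same fits are not given here. The cause of these shifts was not tested. Depth limits ATP5E, COX6B2 and ATP5EP2, with 20 to 105 counts per library.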
